A study of Bos taurus with 16 samples.

Results

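The genes described here encode the nuclear subunits of oxidative phosphorylation, the machinery by which mitochondria turn electrons from nutrients into ATP. Members were the array spots whose gene name starts with NDUFA, NDUFB, NDUFC, NDUFS, NDUFV, SDHA to SDHD, UQCR, COX4 to COX8 or ATP5, with the brightest spot kept for each gene. This gave 70 genes from 72 spots, out of 15208 probes on the array. By complex there were 35 genes of complex I, 4 of complex II, 4 of complex III, 12 of complex IV and 14 of complex V. The remaining one, DMAC2L, known on the array as ATP5S, encodes a coupling factor and is not counted as a structural subunit here. NDUFA4 was kept with complex I by its name, although the protein is now regarded as part of complex IV.

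Electrons enter the inner mitochondrial membrane through complex I (NADH dehydrogenase) and complex II (succinate dehydrogenase), pass through complex III (ubiquinol-cytochrome c reductase) and reach oxygen at complex IV (cytochrome c oxidase). Complexes I, III and IV pump protons, and complex V, the ATP synthase, lets them flow back to make ATP. In the corpus luteum, the ovarian gland that secretes progesterone after ovulation, mitochondria also carry out the first step of steroid synthesis, in which the side chain of cholesterol is removed.

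RNA was taken from corpora lutea of 16 Japanese Black cows, each measured once on a 1-colour bovine array. The groups were non-pregnant cows on days 10 to 12 of the estrous cycle (cyclic) and pregnant cows on days 20 to 25, 40 to 45 and 150 to 160 of gestation, with 4 animals each and insemination counted as day 1. Glands of pregnant cows were also older than those of cyclic cows, and the effects of gland age and of pregnancy cannot be told apart. Whole glands hold several cell types, and in such bulk samples fewer cells of a type and less RNA per cell cannot be told apart.

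A level here is the log2 background-corrected brightness of a spot relative to the upper quartile of its own array, the 75th percentile, which stands at 0. Of the 70 members 67 had a mean level above 0, and all 70 were well enough detected to be tested among 11940 probes. The 16 arrays lay on 2 slides, with 2 arrays of every group on each. Each group kept the same positions on both slides, and an effect of position cannot be told apart from one of group. The steroidogenic genes STAR, CYP11A1 and HSD3B1, which mark luteal cells, had mean levels of 7.62, 6.59 and 7.44 on days 150-160 and of 7.31, 6.41 and 7.04 in cyclic cows. Of all 8 steroidogenic markers 5 had positive log2 changes in this comparison and 3 negative ones: FDXR at -0.62, SCARB1 at -0.10 and OXT at -7.97. Markers of skeletal and heart muscle, summed over 7 genes, lay between -2.50 and -1.99 on days 150-160 and between -2.45 and -2.16 in cyclic cows.

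A large local fault on 1 array touches these genes, as does a small bright area on another. On the array of days 20-25, cow 4, 1356 of 11941 spots that passed the detection filter (11.4%) lay in a dim area with a median of -1.30 relative to the other cows of its group. No other array had such a dim area. It covered the spots of 8 members: NDUFS7, NDUFA4, NDUFAB1, SDHC, UQCRC2, COX6B1, ATP5PO and DMAC2L. Their values on days 20-25 are therefore also given with the area set to missing, a choice made after the data were seen. The same rerun set local bright areas to missing, among them 55 spots on the array of cyclic cow 1, where the NDUFS8 spot lies. Leaving these 8 out, the other 62 members had a median change of -0.16 on days 20-25 and -0.28 on days 150-160 against cyclic cows. The 62 keep their values from cow 4 of days 20-25, whose array ran slightly high as a whole. Over all tested probes the median difference from the mean of all cows was 0.15 in this cow. It was 0.01, 0.02 and 0.05 in the other cows of its group. Over all members it was 0.01, against -0.07, -0.01 and 0.03. The part of this offset in the change of the 62 was not tested.

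The array probes that carry the results are 60 bases long and are printed 5′ to 3′ in lower case as the scanner files give them. The first 5 belong to the members that passed the test, and the last 3 to the genes with a pair of spots, where the data allow a check of one spot against another. The ATP5PB sequence stands on the array on both of its spots.
NDUFA9: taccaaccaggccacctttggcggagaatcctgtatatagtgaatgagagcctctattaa
NDUFB1: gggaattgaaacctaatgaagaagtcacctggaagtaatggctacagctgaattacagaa
NDUFB4: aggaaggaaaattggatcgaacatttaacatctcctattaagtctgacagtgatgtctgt
UQCR11: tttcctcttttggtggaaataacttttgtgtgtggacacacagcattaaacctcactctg
ATP5F1E: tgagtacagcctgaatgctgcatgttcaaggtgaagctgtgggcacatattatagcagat
NDUFAB1, the brighter spot: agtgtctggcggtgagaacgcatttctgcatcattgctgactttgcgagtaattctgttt
NDUFAB1, the other spot: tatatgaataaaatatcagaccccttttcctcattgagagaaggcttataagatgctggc
ATP5PB, both spots: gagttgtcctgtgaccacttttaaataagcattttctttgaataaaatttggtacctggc

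The genes with these probes lie, by the RefSeq annotation of assembly ARS-UCD2.0, on chromosome 5 (NDUFA9), 21 (NDUFB1), 1 (NDUFB4), 7 (UQCR11), 13 (ATP5F1E), 25 (NDUFAB1) and 3 (ATP5PB). The 70 members together lie on 25 chromosomes. Their probes held a median of 44.2% G and C, close to the 43.3% of all tested probes.

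Most members had lower levels in pregnant than in cyclic cows, by small amounts. On days 150-160, 66 of 70 members had a negative change and the median change was -0.28 on the log2 scale, against 47.3% negative and a median of 0.03 over all tested probes. With limma over all 11940 probes, 5 members passed an adjusted p under 0.05, all lower, where 7.98% of all probes passed in either direction and 3.32% were lower. These were NDUFA9, NDUFB1 and NDUFB4 of complex I, UQCR11 of complex III and ATP5F1E of complex V. At an unadjusted p under 0.05, 25 members were lower and 0 higher, against 10.2% of all probes lower. In 7 members every cow of days 150-160 lay below every cyclic cow, which held for 5.08% of all probes.

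**Figure D1:**
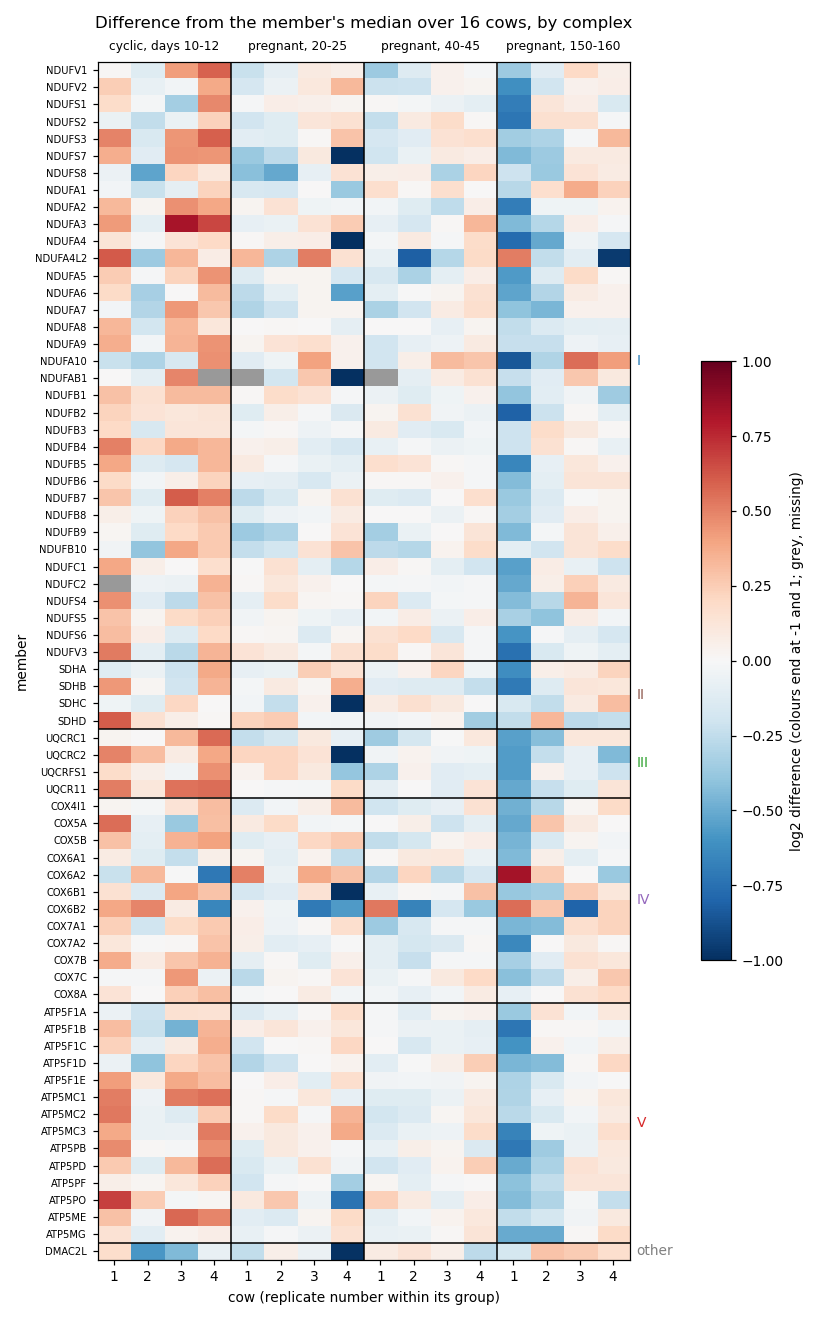
Level of each of the 70 members (rows, by complex) in each of 16 cows (columns, by group), as the log2 difference from the member's median over the cows; blue is lower, red is higher and grey is missing. Cow 1 of days 150-160 was the lowest of 16 for 50 members, and the isolated dark blue cells of days 20-25, cow 4, include the members in the dim area of that array.

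The median change over all 16 arrays was less negative at the earlier stages, and that order rested on 1 cow and 1 slide. The medians against cyclic cows on days 20-25, 40-45 and 150-160 were -0.12, -0.15 and -0.37 within slide 1, and -0.24, -0.21 and -0.16 within slide 2, where the order was the opposite. Without cow 1 of days 150-160 all 3 stages stood at -0.17. On days 40-45, 60 of 70 members had a negative change against cyclic cows and the median was -0.17 (47.8% negative and a median of 0.01 over all probes), and 0 members passed the limma test, where 1.23% of all probes did. At an unadjusted p under 0.05, 11 members were lower on days 40-45, against 7.38% of all probes, and 6 did not overlap with cyclic cows, against 4.56%. On days 20-25, 64 of 70 members had a negative change and the median was -0.17 (42.9% negative and a median of 0.05 over all probes), again with 0 members past the limma test, where 0.293% of all probes passed. There 8 members were lower at an unadjusted p under 0.05, against 3.64% of all probes, and 5 did not overlap, against 1.69%. The 3 comparisons share the cyclic cows.

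Between the stages of pregnancy 0 members passed the limma test, where 0.0335% of all probes passed for days 40-45 against 20-25, 0.0419% for days 150-160 against 40-45 and 1.57% for days 150-160 against 20-25. The median changes of the members were -0.01, -0.09 and -0.10 in that order. Within slide 2 the median was 0.02 for days 150-160 against 40-45 and 0.05 for days 150-160 against 20-25. At an unadjusted p under 0.05 the counts of members were 0, 0 and 1, where 8.41%, 9.22% and 13.9% of all probes passed. That one was NDUFB1, at -0.30 ± 0.11 (SE) for days 150-160 against 20-25 (limma adjusted p = 0.222). The moderated F test over the 4 groups called 0 members at an adjusted p under 0.05, where 3.85% of all probes passed, and 10 members at an unadjusted p under 0.05, where 20.3% of all probes did.

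NDUFB1 and NDUFB4 are accessory subunits of the membrane arm of complex I, the arm that pumps protons. NDUFB1 had levels of 2.75, 3.04, 3.11 and 2.79 on days 150-160, against 3.44, 3.30, 3.46 and 3.46 in cyclic cows. The groups did not overlap. Levels were 3.16, 3.33, 3.29 and 3.13 on days 20-25, where 1 cow overlapped with the cyclic range, and 3.09, 3.02, 3.10 and 3.19 on days 40-45, all below it. NDUFB1 on days 150-160 fell by 28.9% in signal, a log2 change of -0.49 ± 0.11 (SE; limma adjusted p = 0.0162). It was the only one of the 5 that stayed past the threshold whichever of the 16 arrays was left out, with a highest adjusted p of 0.0446. The change was -0.48 within slide 1 and -0.51 within slide 2.

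NDUFB4 had levels of 2.22, 2.58, 2.44 and 2.35 on days 150-160, against 2.93, 2.63, 2.80 and 2.76 in cyclic cows. It had levels of 2.47, 2.48, 2.32 and 2.26 on days 20-25 and of 2.35, 2.41, 2.37 and 2.38 on days 40-45, and all 3 pregnant groups lay below every cyclic cow. The changes were -0.40, -0.40 and -0.38 on days 20-25, 40-45 and 150-160, each ± 0.11 (SE), with limma adjusted p of 0.133, 0.0947 and 0.0469. Only the last passed, and it was lost in 13 of the 16 fits with an array left out, with an adjusted p of up to 0.11.

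NDUFA9 is an accessory subunit near the junction of the membrane arm and the matrix arm. It had levels of 2.90, 2.90, 3.08 and 3.05 on days 150-160, against 3.49, 3.10, 3.47 and 3.58 in cyclic cows. The groups did not overlap, although cyclic cow 2 lay just above cow 3 of days 150-160. On days 20-25 and 40-45 NDUFA9 had mean levels of 3.22 ± 0.07 and 3.07 ± 0.12, against 3.41 ± 0.21 in cyclic cows (SD, n = 4 each). The change was -0.43 ± 0.12 (SE; limma adjusted p = 0.0431), and it was lost in 13 of the 16 fits with an array left out, where the adjusted p reached 0.115.

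**Figure D2:**
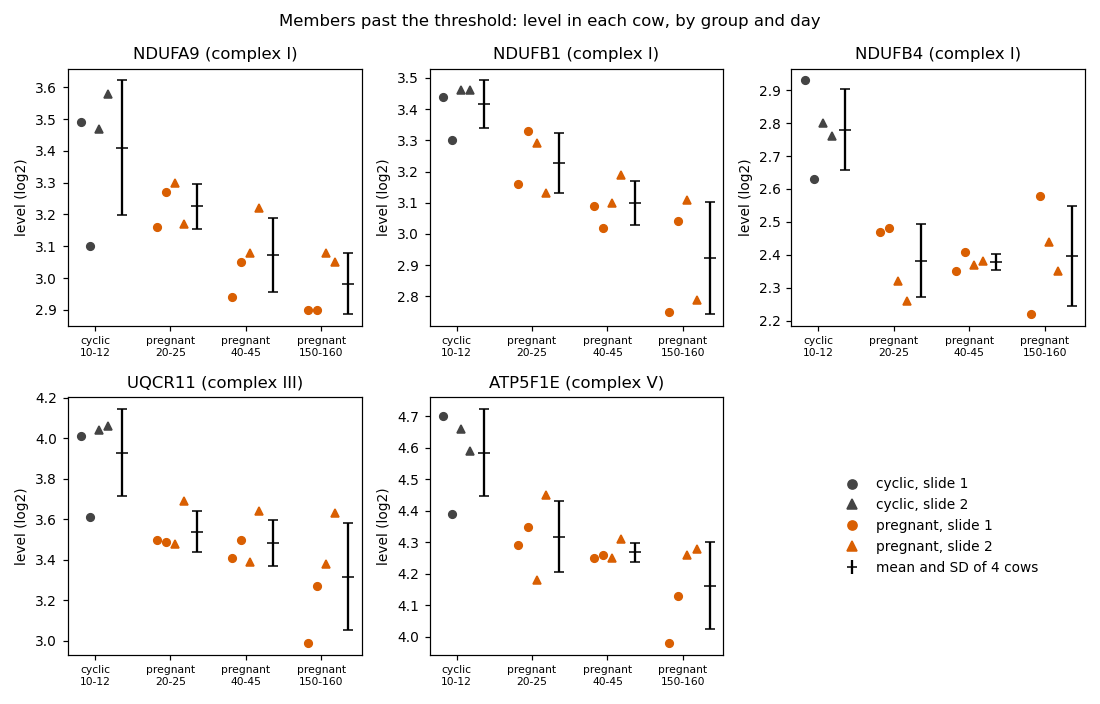
Level (log2, relative to each array's 75th percentile) of the 5 members past the threshold in each cow, by group and day; circles are slide 1, triangles slide 2, and bars the mean and SD of 4 cows. NDUFB1, NDUFB4, NDUFA9 and ATP5F1E of days 150-160 lie below every cyclic cow, while UQCR11 overlaps through cyclic cow 2, at 3.61, and days 150-160 cow 4, at 3.63.

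Of the other complex I genes 0 passed the test as reported, although some passed on days 150-160 under other settings. NDUFA3 and NDUFB7 passed with slide as a block and with the replicate block, and NDUFA3 also with quantile normalization. NDUFA3, NDUFA8 and NDUFB7 passed without cyclic cow 2, NDUFA4 without cow 4 of days 20-25 and NDUFS5 without cow 3 of days 150-160. Of the 7 core subunits, which carry the flavin and the iron-sulphur clusters, all 7 had negative changes on days 150-160, from -0.44 for NDUFS7 to -0.02 for NDUFS8, with a median of -0.28 and 0 past the test. The 12 genes named as alpha subunits had a median of -0.32, with 10 negative and 1 called, and ranged from -0.63 for NDUFA3 to 0.15 for NDUFA1. The 10 beta subunits were all negative, with a median of -0.24 and 2 called. The remaining 6 accessory subunits were all negative too, with a median of -0.33 and 0 called. NDUFB2, another beta subunit, had levels of 0.09, 0.68, 0.91 and 0.80 on days 150-160, against 1.12, 1.03, 1.01 and 1.02 in cyclic cows, without overlap. Its change of -0.43 ± 0.15 (SE) did not pass (limma adjusted p = 0.0989), and cow 1 stood well below the other 3.

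NDUFS7, a core subunit with an iron-sulphur cluster next to the ubiquinone site, has a value on days 20-25 that rests on the dim area. Its levels on days 20-25 were 2.82, 2.93, 3.29 and 0.80, against 3.55, 3.08, 3.64 and 3.63 in cyclic cows. The change was -1.02 ± 0.39 (SE; limma adjusted p = 0.261), and -0.47 ± 0.19 (adjusted p = 0.275) with the area set to missing.

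NDUFAB1, the mitochondrial acyl carrier protein that complex I also holds, shows the fault most plainly, because it has a pair of spots with different sequences. The brighter spot read -0.32 in cow 4 of days 20-25 and 5.36 to 5.81 in the other cows of that group with a value, and 1 cyclic, 1 days 20-25 and 1 days 40-45 value were missing through outlier flags. The second spot lies outside the dim area and read 3.41 in that cow, against 3.50, 3.60 and 3.83 in the rest of its group. Of the brighter spot the change on days 20-25 was -2.05 and, with the area set to missing, -0.08, neither past the test (adjusted p = 0.441 and 0.90). On days 150-160 its change was -0.12 from the brighter spot and -0.26 from the second (adjusted p = 0.962 and 0.439).

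**Figure D3:**
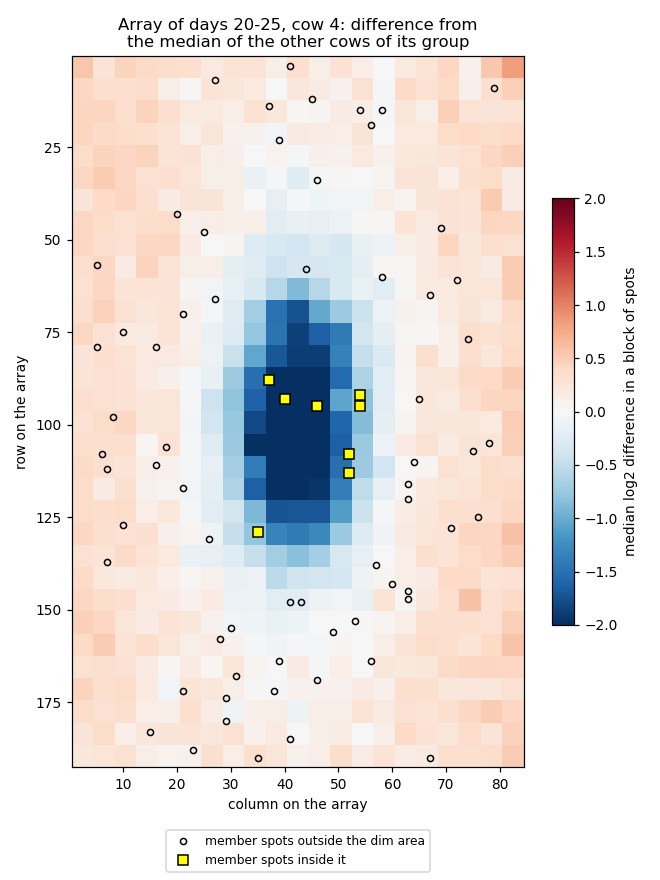
Spots of the array of days 20-25, cow 4, by row and column; colour is the median log2 difference from the other cows of the group in blocks of spots, squares are member spots inside the dim area and circles member spots outside it. The area spans rows 60 to 141 and columns 28 to 56 and holds 828 of the 983 tested spots of this array that lay more than 1 log2 unit below their group.

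NDUFA4 has a paralog, NDUFA4L2, which is known to be induced by low oxygen in other cells. NDUFA4 had levels of 4.75, 5.01, 5.48 and 5.35 on days 150-160, against 5.65, 5.51, 5.66 and 5.72 in cyclic cows, without overlap. Its change was -0.49 ± 0.23 (SE; limma adjusted p = 0.208), and -0.49 ± 0.15 (adjusted p = 0.0516) with the dim area set to missing. On days 20-25 its change was -0.35, and -0.07 with the area set to missing. NDUFA4L2 ranged from -1.62 to -0.15 on days 150-160 and from -1.03 to -0.05 in cyclic cows, a change of -0.37 ± 0.31 (SE; adjusted p = 0.513).

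All 4 genes of complex II, which links the citric acid cycle to the chain, had negative changes on days 150-160. Their median was -0.18, close to the -0.20 of complex IV. Of these genes 0 passed the test, which over only 4 genes does not set complex II apart from the others. SDHA, the flavoprotein, averaged 5.65 ± 0.38 on days 150-160 and 5.71 ± 0.26 in cyclic cows (SD, n = 4 each), a change of -0.06. SDHB, the iron-sulphur subunit, had levels of 0.35, 0.93, 1.18 and 1.17 on days 150-160, against 1.49, 1.08, 0.87 and 1.40 in cyclic cows. The groups overlapped, and the change of -0.30 ± 0.19 (SE; limma adjusted p = 0.352) became 0.04 within slide 2. SDHC and SDHD are the membrane anchors. SDHD averaged 1.85 ± 0.30 on days 150-160 and 2.16 ± 0.27 in cyclic cows, a change of -0.31 ± 0.17 (SE; adjusted p = 0.291).

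SDHC had levels of 4.28, 4.07, 4.35 and -0.96 on days 20-25, against 4.27, 4.19, 4.52 and 4.31 in cyclic cows. The low value lies in the dim area. The change on days 20-25 was -1.39 ± 0.84 (SE; limma adjusted p = 0.461), and -0.09 ± 0.15 (adjusted p = 0.825) with the area set to missing. On days 150-160 it was -0.01.

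Complex III had the most negative median of the 5 complexes at every stage, over only 4 genes: -0.36 on days 20-25, -0.34 on days 40-45 and -0.52 on days 150-160. The first of these includes the dim spot of UQCRC2. UQCR11, its smallest accessory subunit, had levels of 2.99, 3.27, 3.38 and 3.63 on days 150-160, against 4.01, 3.61, 4.04 and 4.06 in cyclic cows. The groups overlapped by 1 cow each. The log2 changes of UQCR11 were -0.39, -0.45 and -0.61 on days 20-25, 40-45 and 150-160, each ± 0.15 (SE), with limma adjusted p of 0.256, 0.154 and 0.0206. The last corresponds to a signal that fell by 34.6%. That call was lost without cow 1 or cow 2 of days 150-160 or without cyclic cow 4, at an adjusted p of up to 0.0567.

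UQCRC2, core protein II, had levels of 1.13, 1.45, 1.60 and 1.24 on days 150-160, against 2.18, 1.99, 1.77 and 2.07 in cyclic cows. The groups did not overlap, and the levels of 1.65, 1.72, 1.65 and 1.64 on days 40-45 also lay below every cyclic cow. The change on days 150-160 was -0.64 ± 0.31 (SE) and did not pass (limma adjusted p = 0.218). The spread behind that SE is shared by all groups and includes the value of 0.12 in the dim area, against 1.82 to 1.90 in the other cows of days 20-25. With the area set to missing the change was again -0.64, now ± 0.13 (adjusted p = 0.00701). UQCRC1, core protein I, had a change of -0.42 ± 0.18 (adjusted p = 0.179, and 0.0303 with slide as a block) and UQCRFS1, the Rieske iron-sulphur protein, one of -0.36 ± 0.17 (adjusted p = 0.198) on days 150-160.

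Of the 12 complex IV genes 0 passed the test at any stage, although COX5B passed on days 150-160 with slide as a block, and the median change was -0.12 on days 20-25, -0.18 on days 40-45 and -0.20 on days 150-160. COX7B, a small subunit, had the smallest unadjusted p of complex IV on days 20-25 and 40-45, at 0.0277 and 0.0131. It had levels of 2.92, 3.02, 2.89 and 3.06 on days 20-25 and of 2.91, 2.78, 3.0 and 3.0 on days 40-45, against 3.38, 3.09, 3.29 and 3.36 in cyclic cows. Both of these pregnant groups lay below every cyclic cow, narrowly so on days 20-25. The changes were -0.31, -0.35 and -0.31 at the 3 stages, each ± 0.13 (SE), with limma adjusted p of 0.292, 0.188 and 0.147. COX5B, which binds zinc, had a change of -0.39 ± 0.15 on days 150-160 (adjusted p = 0.136, and 0.0344 with slide as a block), and COX4I1, the subunit through which ATP acts on the enzyme, one of -0.25 ± 0.16 (adjusted p = 0.355).

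Several complex IV subunits come as tissue isoforms, and the array holds members of these pairs. The muscle form COX6A2 had mean levels of -5.54 ± 0.51 on days 150-160 and -5.87 ± 0.44 in cyclic cows (SD, n = 4 each), and the general form COX6A1 had 3.58 ± 0.22 and 3.65 ± 0.15. The muscle form COX7A1 averaged 2.63 ± 0.37 on days 150-160 and 2.87 ± 0.22 in cyclic cows, and the general form COX7A2 averaged 4.50 ± 0.34 and 4.74 ± 0.13. Levels of different probes are not comparable, so these values give no ratio of the forms. None of the 4 passed the test: the limma adjusted p on days 150-160 was 0.468, 0.799, 0.426 and 0.372 in the order given. COX6B2, described as the testis form, ranged from -0.36 to 1.00 on days 150-160 and from -0.21 to 0.93 in cyclic cows. COX6B1, the general form, had a change of -0.26 ± 0.30 (SE; adjusted p = 0.65), on days 150-160. On days 20-25 its change was -0.61, and -0.22 with the area set to missing, which covers its value of 2.57 in cow 4. The spot named COX8 is described on the array as the heart form, while its accession belongs to COX8A in RefSeq; it had a change of -0.10 ± 0.11 (adjusted p = 0.611).

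All 14 complex V genes had negative changes on days 150-160, with a median of -0.31 and 1 called. The medians were -0.19 on days 20-25 and -0.20 on days 40-45, with 13 of 14 negative at both and 0 called. ATP5F1E, the epsilon subunit of the rotating central stalk, had levels of 3.98, 4.13, 4.26 and 4.28 on days 150-160, against 4.70, 4.39, 4.66 and 4.59 in cyclic cows. The groups did not overlap, and the levels of 4.25, 4.26, 4.25 and 4.31 on days 40-45 were also below every cyclic cow. The change on days 150-160 was -0.43 ± 0.11 (SE; limma adjusted p = 0.0317), a signal that fell by 25.6%. It was lost in 5 of the 16 fits with an array left out, those without cow 1 or cow 2 of days 150-160 or without cyclic cow 1, 3 or 4, with an adjusted p of up to 0.0744.

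The other 13 genes of the ATP synthase also had negative changes, none past the threshold. The 5 genes of the catalytic F1 head and central stalk, ATP5F1E included, had a median of -0.18 on days 150-160, with ATP5F1A, the alpha subunit, at -0.05 and ATP5F1B, the catalytic beta subunit, at -0.18. The 4 genes of the peripheral stalk, which holds the head still, had a median of -0.44. Among them ATP5PO, also called OSCP, had levels of 2.40, 2.53, 2.81 and 2.59 on days 150-160, against 3.51, 3.08, 2.81 and 2.85 in cyclic cows. The change was -0.48 ± 0.21 (SE; limma adjusted p = 0.172), and on days 20-25 it was -0.34, or -0.13 with the dim area set to missing. DMAC2L, the coupling factor, had a change of -0.07 on days 20-25, or 0.15 with the area set to missing, and of 0.37 on days 150-160. ATP5MC1, ATP5MC2 and ATP5MC3 encode the same mature c subunit of the proton-driven ring with different import sequences. They had changes of -0.44 ± 0.14, -0.24 ± 0.15 and -0.35 ± 0.19 on days 150-160 (adjusted p = 0.0725, 0.385 and 0.283). ATP5MC1 had levels of 3.50, 3.72, 3.83 and 3.91 on days 150-160, against 4.31, 3.75, 4.32 and 4.35 in cyclic cows, where cow 2 alone lay within the pregnant range. With slide as a block its adjusted p was 0.0418.

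ATP5PB, the b subunit of the peripheral stalk, stands on the array as a pair of spots with the identical sequence printed above, which shows how well 1 spot is measured. Over the 16 arrays the difference between these spots ran from -0.27 to 0.13, with a median of -0.21, and the SD of 1 spot was 0.07. The 0.13 came from days 20-25, cow 4, where the spots read 3.67 and 3.54. That array holds the dim area, although neither spot lies in it. Over 71 tested sequences with more than 1 spot the median SD of 1 spot was 0.12. The median SD between cows within groups was 0.23 for the members, 0.24 for all probes with a level above 0 and 0.31 for all tested probes. The 2 spots of ATP5PB had changes of -0.49 and -0.40 on days 150-160 (limma adjusted p = 0.0977 and 0.187).

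The members' median level differed between cows of the same group. The median over members of the difference from the mean of all 16 cows was -0.42, -0.14, 0.07 and 0.06 on days 150-160, against 0.27, -0.06, 0.17 and 0.32 in cyclic cows. The groups overlapped, since cyclic cow 2 lay below cows 3 and 4 of days 150-160. The medians lay between -0.07 and 0.03 on days 20-25 and between -0.05 and 0.04 on days 40-45, below 3 of the 4 cyclic cows. Cow 1 of days 150-160 was the lowest of 16 for 50 of 70 members, and cyclic cows 1, 3 and 4 were the highest for 19, 13 and 28.

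Those cows weigh on the call count. Without cow 1 of days 150-160 the median change was -0.17 with 56 of 70 negative and 1 member called, and without cyclic cow 2 it was -0.35 with 10 called. The number called was 2 without cow 2 of days 150-160, 3 without cow 4, 2 without cyclic cow 1 or 3, and 1 without cyclic cow 4. It was 3 without any one of cows 1, 2 and 3 of days 20-25 or of days 40-45, and 4 and 7 without cow 4 of days 40-45 and of days 20-25, all of which enter only through the shared spread; without cow 3 of days 150-160 it was 4. By slide, the median change on days 150-160 was -0.37 with 63 negative within slide 1 and -0.16 with 55 negative within slide 2, and 0 members passed in either with 2 cows a group. With slide as a block 11 passed, all 5 and also NDUFA3, NDUFB7, UQCRC1, COX5B, ATP5MC1 and ATP5ME.

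**Figure D4:**
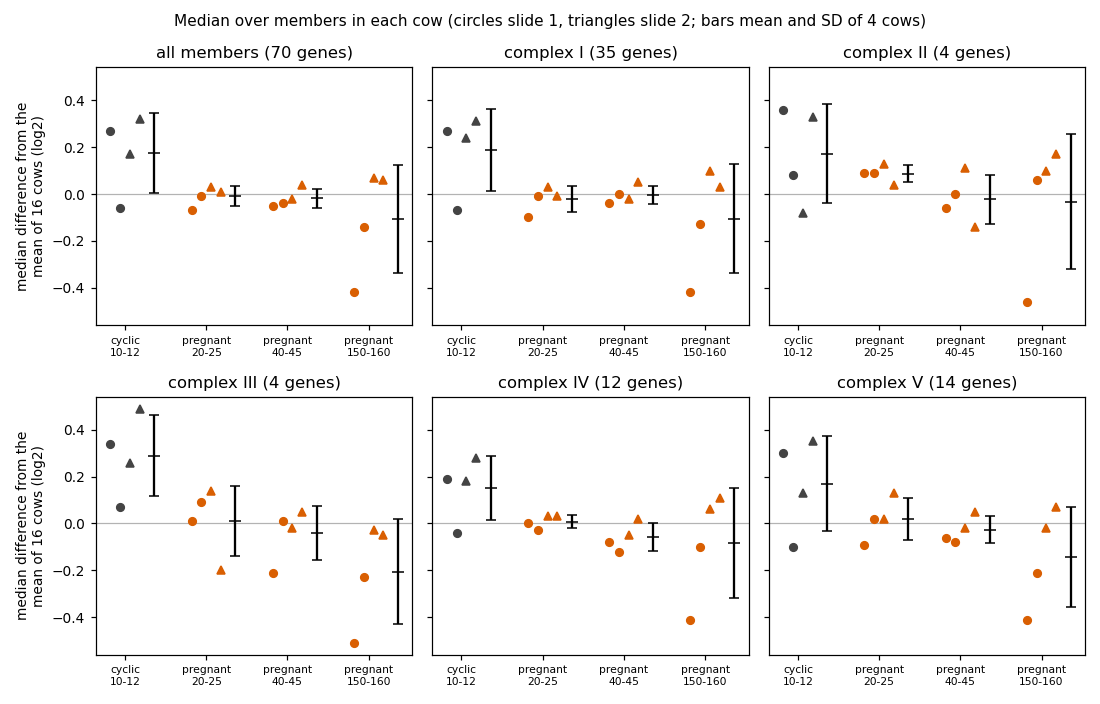
Median over members, and over the members of each complex, of the log2 difference from the mean of 16 cows, for each cow by group and day; circles are slide 1, triangles slide 2, and bars the mean and SD of 4 cows. Over all members the values are -0.42 to 0.07 on days 150-160 and -0.06 to 0.32 in cyclic cows, with overlap, and the earlier stages stay within -0.07 and 0.04.

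The members' change was also set beside that of probes of like brightness and base composition, with no test. Probes with a level of 2 to 4 had a median change of -0.07 on days 150-160, against -0.30 for the 40 members in that range. Above a level of 4 the medians were -0.01 for all probes and -0.25 for 18 members. Bright probes as a whole also differed between cows, by smaller amounts: probes with a level over 2 had medians of -0.16, -0.05, 0.07 and 0.10 on days 150-160, against -0.05, -0.06, 0.09 and 0.10 in cyclic cows. By G and C content of the probe, the members' medians were -0.24 under 40%, -0.30 from 40% to under 50% and -0.26 from 50% up, where all probes had -0.01, 0.02 and 0.09.

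**Figure D5:**
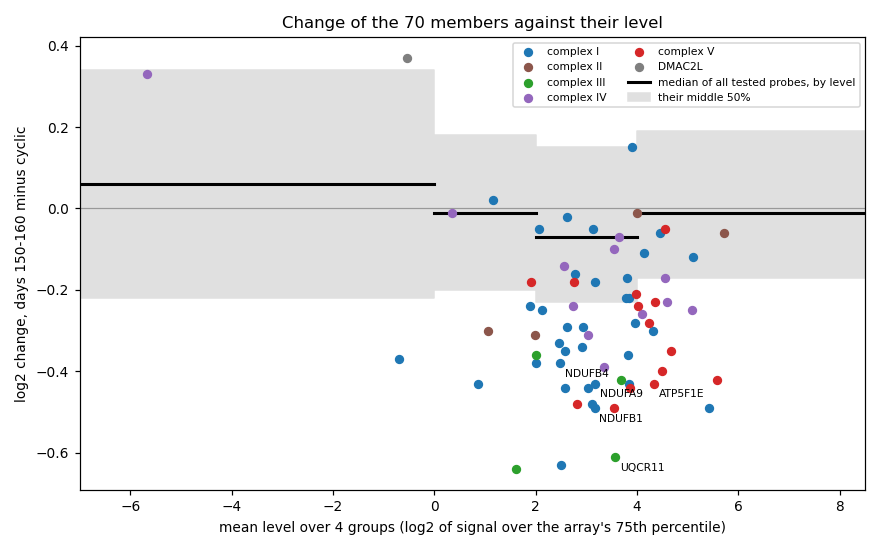
Log2 change on days 150-160 minus cyclic (vertical) against mean level (horizontal, log2 relative to the array's 75th percentile) for the 70 members, coloured by complex; black lines are the median and grey bands the middle 50% of all tested probes in the same range of levels. The members lie below the line in most cases, and the 4 with positive changes are DMAC2L, COX6A2, NDUFA1 and NDUFA10.

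Markers of other cells differed in the same comparison, where 7.98% of all probes passed the test. Summed over 8 endothelial markers, the level on days 150-160 lay between 3.79 and 4.58, against 3.02 to 3.60 in cyclic cows, without overlap. Such a sum follows the brightest markers. The median endothelial marker overlapped, at -0.27 to 0.77 relative to its mean over all cows, against -0.39 to -0.17 in cyclic cows. TEK and ENG rose past the threshold, while 2 of the 8 had negative changes, VWF among them at -0.51. Summed over 6 fibroblast markers the level lay between 4.96 and 5.45, against 5.56 to 6.20, and 3 of the 6, COL1A1, COL1A2 and COL3A1, fell. Of 8 steroidogenic markers 1 fell, the hormone gene OXT, with a log2 change of -7.97, and the sum over all 8 lay between 8.82 and 9.01 on days 150-160, against 8.48 to 9.31 in cyclic cows. In cow 1 of days 150-160 the median endothelial, pericyte and immune marker stood 0.77, 1.17 and 0.71 above its mean over all cows. Of 6 granulocyte markers 3 fell and of 7 immune markers 1, CD68, fell, while 0 of 5 pericyte and 0 of 2 red blood cell markers passed the test. The summed levels of these last 4 lists overlapped between days 150-160 and cyclic cows. The part of these cells in the members' change was not tested.

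Other genes of mitochondrial metabolism, taken from lists, also had negative median changes on days 150-160. The split of signs was more even for mitochondrial biogenesis, with 4 negative and 3 positive. Over all tested probes 47.3% were negative and 7.98% passed the test in that comparison. Of 15 electron carriers and assembly factors 12 were negative on days 150-160, with a median of -0.18; COX16, an assembly factor of complex IV, fell by 0.53 on the log2 scale (limma adjusted p = 0.0162), and COX20, another one, rose by 0.67 (adjusted p = 0.0432). Of 15 genes of the citric acid cycle and pyruvate entry 14 were negative, with a median of -0.30. The 1 called there (6.67%) was MDH2, mitochondrial malate dehydrogenase, which fell by 0.49 (limma adjusted p = 0.0354). Of 17 genes for ATP export and the inner membrane 15 were negative, with a median of -0.23 and 0 called on days 150-160. On days 40-45 UCP2, an uncoupling protein, fell by 1.34 (limma adjusted p = 0.0337). It was the 1 of 17 called there, where 1.23% of all probes passed. Of 7 tested genes of mitochondrial biogenesis 4 were negative, with a median of -0.28 and 0 called.

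Of 19 tested genes of glycolysis and the hypoxia response, 5 were negative on days 150-160 and the median was 0.11. EPAS1, which encodes the hypoxia-inducible factor HIF-2 alpha, rose by 0.68 (limma adjusted p = 0.0293). It was the 1 gene called there (5.26%), where 7.98% of all probes passed. The difference between these lists was not tested. Subunits encoded in mitochondrial DNA were not analysed here: spots named COX1 and COX2 on this array are described as prostaglandin synthases and were left out.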

How the data were processed

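Total RNA of 16 corpora lutea, 1 cow per array, was labelled with Cy3 and hybridised to 1-colour Agilent bovine arrays. The authors deposited the scanner output of each array, read with Agilent Feature Extraction 9.5 per the submitters' processing notes; its processed signal is an intensity corrected for background and spatial trend per the file headers, not scaled between arrays. They also deposited a value table that holds log2 of that signal minus a constant (largest departure 0.0046; column medians -3.18 to -2.98, with the centring rule unknown), used as an alternative. The genome build is not given in the sources used here.

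From the intensities, log2 of the signal was taken and each array's 75th percentile subtracted. Before scaling that percentile lay between 2020 and 4288, and 71.9% to 79.6% of probes were well above background; the number of arrays limits the precision. The 536 control spots were left out and 220 spots with outlier flags set to missing. Probes well above background on at least 3 of 4 arrays of a group were tested (11940 fitted). limma 3.58.1 in R 4.3.3 was fitted over all 16 arrays with a group term (12 residual and 2.77 prior degrees of freedom), with 6 comparisons, a moderated F test, two-sided p-values and Benjamini-Hochberg adjustment over all probes. The fit was tested on simulated data.

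Genes were named through RefSeq: 54 members by accession, 1 by gene ID, 10 by symbol and 5 by synonym; 19 carry another name on the array. Members and lists were chosen with earlier results of these data known. Genes were named in the text when they passed a test, had the smallest p of their complex, belonged to a pair of isoforms or, in other lists, passed against cyclic cows; further members were named after their values were seen. Marker sums are log2 of the summed linear levels. Alternatives were other background corrections, scalings, filters, slide and replicate blocks, array weights, leaving out each array, and setting local areas to missing.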

Additional observations from a re-analysis of the deposited data

Results flagged for a closer look

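In 12 of 140 sets of 4 cows, 1 cow stood far from the other 3 of its group in a named member, by Dixon's test; chance gives about 1 in 20.

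Cyclic cow 2 was low in 5 of them. It had 3.08 for NDUFS7, where the other cyclic cows had 3.55 to 3.64, 3.30 for NDUFB1 (others 3.44 to 3.46), 3.61 for UQCR11 (others 4.01 to 4.06), 2.55 for COX7A1 (others 2.94 to 3.01) and 3.75 for ATP5MC1 (others 4.31 to 4.35).

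Cow 4 of days 20-25 was low for 3 members whose spots lie in the dim area of its array: 4.46 for NDUFA4 (others 5.53 to 5.59), -0.96 for SDHC (others 4.07 to 4.35) and 0.12 for UQCRC2 (others 1.82 to 1.90). The same cow was high for UQCR11, outside that area, at 3.69 (others 3.48 to 3.50). The block of spots around it on this array had a median 0.19 above the other cows of the group, against 0.20 for the UQCR11 spot. The part of this offset in the UQCR11 value was not tested.

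Cow 1 of days 150-160 was low for COX7A2, at 3.99 (others 4.64 to 4.73), and cow 2 of that group was high for SDHD, at 2.29 (others 1.69 to 1.72). Cow 2 of days 40-45 was high for UQCRC2, at 1.72 (others 1.64 to 1.65), a gap smaller than the median SD of 1 spot, 0.12.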

How the results depend on the processing

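The median change of the members on days 150-160 against cyclic cows stayed negative under every alternative run, between -0.37 and -0.16. The number of members called there, 5 as reported, was 2 with array weights, 2 with arrays centred on the median, 3 with no filter on dim probes, 0 within slide 1, 0 within slide 2, 11 once slide entered as a block, and between 1 and 10 with an array left out. With quantile normalization it was 7, of which 4 were among the 5 (NDUFB4 was not, at a limma adjusted p of 0.0612). With local areas set to missing it was 6, the 5 and UQCRC2. With the replicate block it was 8, of which 4 were among the 5 (NDUFB4 was not, at an adjusted p of 0.0572). The labels do not say that the numbers pair cows: over 24 pairs of same-numbered arrays, which share a slide, the correlation of deviations ran from 0 to 0.29 and 9 were over 0.1, and 9 of 16 arrays correlated best with an array of their own number. The median correlation was 0.08 on the same slide and -0.09 on different slides. Over all probes the count of 953 was 250 and 21 within the slides, 565 with array weights and 580 and 582 without cow 2 of days 150-160 and without cyclic cow 4. The F test called 1 member with local areas set to missing, 1 with quantile normalization, 2 with a slide block and 0 to 2 with an array left out. For days 40-45 against cyclic cows it was 0 to 1 with an array left out, the 1 without cyclic cow 2. The median for days 150-160 against 20-25 was 0.05 within slide 2. Of single genes, these changed sign, none of them called: within slide 2, NDUFB2 (0.00) and SDHA (0.07) for days 150-160 against 40-45 and SDHB (0.04) for days 150-160 against cyclic; within slide 1, SDHC for days 150-160 against 20-25 (-0.07) and UQCRC2 for days 40-45 against 20-25 (-0.22). UQCRC2 in that comparison was also -0.15 with array weights, -0.21 with local areas missing and between -0.21 and 0.38 with an array left out. SDHA for days 150-160 against 40-45 ran from -0.20 to 0.08 with an array left out. SDHD for days 20-25 against cyclic was 0.04 with array weights and ran from -0.17 to 0.03. Beyond fewer samples within slides and when an array is left out, the cause was not tested.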
